A study of Homo sapiens with 12 samples.

Results

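The genes described here are 9 genes of cellular iron uptake, storage, export, release and sensing, which were FTH1, FTL, TFRC, STEAP3, SLC11A2, SLC40A1, NCOA4, ACO1 and IREB2. They were taken by symbol from the 17085 genes of a table of raw RNA-seq read counts. The list was made with earlier results of these data known. Of the 9 genes, 8 passed the filter on low counts and were tested, and SLC40A1 was not. The cells were 786-O, a clear cell renal carcinoma line that lacks functional VHL protein. All groups were this single line, so no non-malignant renal cell was among them, and all were collected after 24 h. The groups were cells given the solvent DMSO, 5 µM everolimus (EVER), 1.5 µM SGI-1027 (SGI), or both drugs together (COMB), with 3 libraries in each. Everolimus is a rapamycin analog that inhibits mTORC1, and SGI-1027 is a quinoline compound known as an inhibitor of DNA methyltransferases. The sample descriptions name 5 µM everolimus, while their treatment text names 10 µM for everolimus given alone, so a difference in everolimus dose between EVER and COMB cannot be told apart from the addition of SGI-1027. Whether the 3 libraries of each group were grown as separate cultures is not stated, and p-values then measure only the spread between these libraries, which may be technical.

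The libraries held 37046231 to 41516976 counts each. All 8 renal carcinoma or epithelial markers checked were present in every library. Their summed level was 8325 to 8713 CPM (counts scaled to a common library total) in DMSO, 9145 to 9507 in EVER, 9403 to 9980 in SGI and 9468 to 9666 in COMB. A single marker reached 6152 CPM in DMSO, 7231 in EVER, 7464 in SGI and 7414 in COMB, and the lowest single value was 15.2 CPM. The sum is thus not an even reading of the 8 markers. The part of the shift in the summed level in the results below was not tested. The 4 markers of blood, endothelial, liver and fibroblast cells summed to 4.14 to 7.78 CPM, and not every planned marker is among them. Single markers ranged from 0 to 7.49 CPM. The libraries SGI 3 and DMSO 1 stood apart from the other libraries of their groups (a chi-square statistic per gene of at least 16.1 and 10.1 against each of them, and at most 5.46 for all other pairs of the same group). SGI 3 and DMSO 1 also deviated from their group means alike, with a correlation over genes of 0.366, the highest between libraries of different groups. In both, FTH1 and FTL were the highest of the group, and TFRC, STEAP3, SLC11A2, NCOA4, ACO1 and IREB2 the lowest. The cause was not tested. Where leaving out SGI 3 or DMSO 1 changed a call of the 9 genes, the value without it is given below. The same is done for some of the other values that moved.

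Iron enters most cells bound to transferrin, which the transferrin receptor TFRC carries into endosomes. There STEAP3 reduces ferric iron and SLC11A2 (DMT1) moves it into the cytosol. Ferritin, a shell of FTH1 heavy chains and FTL light chains, stores the surplus, NCOA4 carries ferritin to lysosomes for breakdown (ferritinophagy), and SLC40A1 (ferroportin) is the iron exporter. ACO1 (IRP1, which is a cytosolic aconitase when it holds an iron-sulfur cluster) and IREB2 (IRP2) are the iron regulatory proteins. In iron-poor cells they bind hairpins called iron-responsive elements, which blocks translation of ferritin transcripts and protects the TFRC transcript from decay. Counts of RNA show the transcript side of this system and not its translation.

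The elements are shown because the iron regulatory proteins act through such hairpins in ferritin, ferroportin and TFRC transcripts. They were found in the untranslated regions of GENCODE release 29 (GRCh38), on the strand of the transcript, by a bulged C, any 5 bases and the loop letters CAGTGN, and by pairing of the 5 bases on either side of the loop (G-T pairs allowed). Each is printed 5′ to 3′ with 30 bases and its 6 loop bases in capitals. The 7 elements with all 5 pairs among the 9 genes are printed.
FTH1 5′ UTR, chr11:61967573-61967602, minus strand: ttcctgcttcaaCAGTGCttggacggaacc
FTL 5′ UTR, chr19:48965335-48965364, plus strand: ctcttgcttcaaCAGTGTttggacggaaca
SLC40A1 5′ UTR, chr2:189580660-189580689, minus strand: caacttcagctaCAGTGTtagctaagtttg
TFRC 3′ UTR, chr3:196050978-196051007, minus strand: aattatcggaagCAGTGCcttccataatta
TFRC 3′ UTR, chr3:196050574-196050603, minus strand: cattatcgggagCAGTGTcttccataatgt
TFRC 3′ UTR, chr3:196050509-196050538, minus strand: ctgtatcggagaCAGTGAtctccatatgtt
TFRC 3′ UTR, chr3:196050462-196050491, minus strand: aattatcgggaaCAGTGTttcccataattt

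The letters alone were common, since 14% of the genes with a 5′ UTR and 36.9% of those with a 3′ UTR held them. With all 5 pairs, an element was found in the 5′ UTR of 31 of 18942 genes (0.164%) and in the 3′ UTR of 128 of 19064 genes (0.671%). FTH1, FTL and SLC40A1 were among the former, and TFRC was among the latter. For the other genes no match with 5 pairs was kept. The best match kept had 4 pairs in the 3′ UTR of SLC11A2, ACO1 and IREB2 and 1 pair in the 5′ UTR of STEAP3. No match was kept for NCOA4. These are matches to letters and pairs in a sequence, with no measurement of binding. The search misses any element with other loop letters, and the rule of 5 pairs leaves out any element with fewer.

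Both ferritin genes rose and TFRC fell in all 3 treated groups. ACO1 fell and STEAP3 rose in SGI and further in COMB, NCOA4 rose in all 3 treated groups and was highest in EVER, and IREB2 hardly moved. A gene counted as changed when its adjusted p (edgeR's quasi-likelihood test, Benjamini-Hochberg adjustment over the 12841 tested genes) was under 0.05. By this rule 4 of the 8 tested genes rose in EVER against DMSO, where 27.2% of all tested genes rose, and 1 fell, where 29.2% fell. In SGI 5 rose (32% of all tested genes) and 2 fell (30.6%). In COMB 5 rose (32.8%) and 3 fell (33.4%). Since so many genes were called in these cells, the number of iron genes called is read with their direction and size. The median log2 fold change of the 8 genes was 0.06 in EVER, 0.19 in SGI and 0.25 in COMB, and over all tested genes it was 0.00, 0.02 and 0.01. All 3 comparisons share the DMSO libraries. The libraries of EVER, SGI and COMB did not overlap those of DMSO for 62.9%, 63.2% and 69.2% of all tested genes. Between treated groups this share was 54.2% for COMB and EVER, 34.6% for COMB and SGI, and 39.5% for SGI and EVER. Separate libraries were thus common, and the overlaps given below for single genes are read against these shares. The study's stricter cut-off (unadjusted p under 0.05 with log2 fold change of 1 or more in size) was passed against DMSO by FTH1 in COMB and by no other iron gene or group, while 4.79% of all tested genes passed it in EVER, 7.33% in SGI and 9.96% in COMB. FTH1 in COMB passed it under every alternative. Without DMSO 1, TFRC in EVER (-1.01) and FTH1 in SGI (1.02) passed it as well, and FTH1 in SGI also did without SGI 1 (1.02), without SGI 2 (1.03) and under upper-quartile scaling (1.03). A level is a share of a library's counts, so less RNA of a kind per cell and fewer cells holding it cannot be told apart in these bulk samples.

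**Figure D1:**
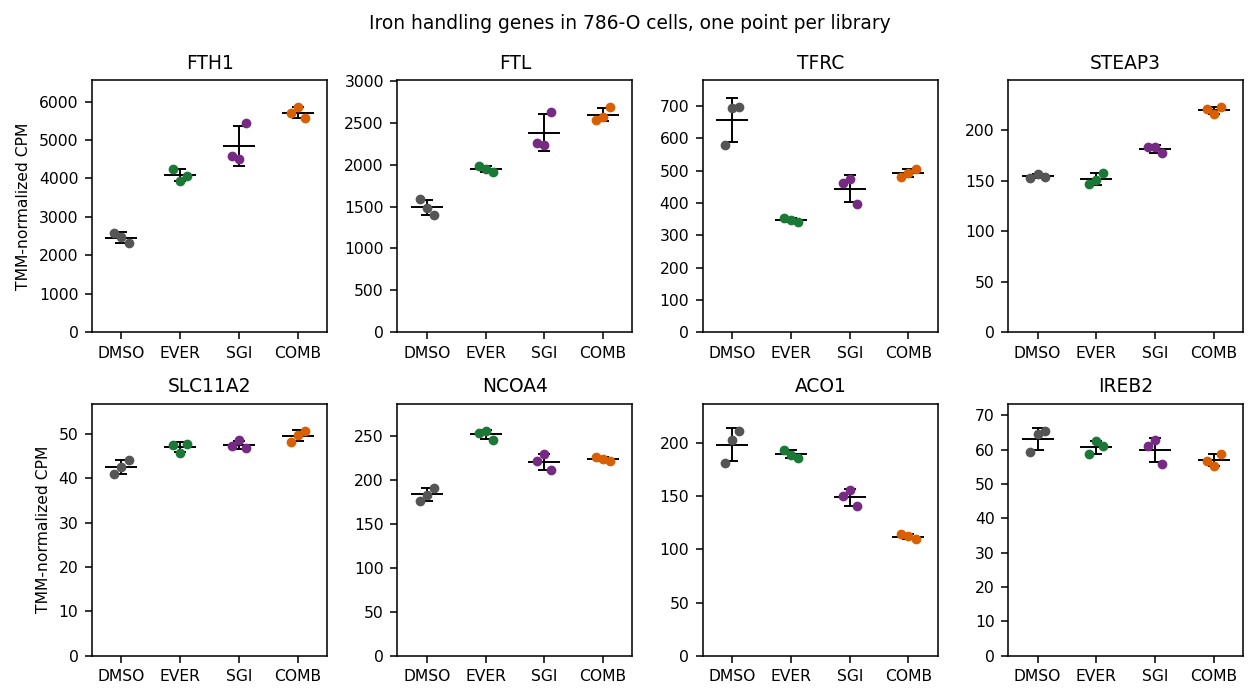
Normalized level (CPM after TMM scaling, linear axis from 0) of the 8 tested iron genes in each of the 12 libraries, with 1 point per library, a dash at the group mean and bars of 1 SD (n = 3 per group). FTH1 rose from a mean of 2458 CPM in DMSO to 5713 in COMB, TFRC was lowest in EVER at 347 CPM, and ACO1 was lowest in COMB at 112 CPM.

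The levels of the 9 genes spanned a wide range already in DMSO, compared here per length in FPKM (fragments scaled by gene length and library total). The implied lengths were 1203 bases for FTH1, 871 for FTL, 7362 for TFRC, 3628 for ACO1 and 7051 for IREB2. Comparisons and ratios between genes depend on these lengths. For ACO1 the length is shorter than an annotated transcript of at least 5712 bases. FTH1 stood at 2035 ± 132 FPKM (SD, n = 3) and FTL at 1706 ± 119 FPKM. TFRC followed at 88.7 ± 8.4, ACO1 at 54.5 ± 3.9, NCOA4 at 41.8 ± 1.3 and STEAP3 at 31.6 ± 0.3 FPKM. IREB2 at 8.91 ± 0.39 and SLC11A2 at 5.60 ± 0.17 FPKM were the lowest that were tested. Both ferritin genes thus stood far above the receptor, and ACO1 stood above IREB2. In COMB, STEAP3 at 45.5 ± 0.7 and NCOA4 at 51.8 ± 0.5 FPKM stood above ACO1 at 31.2 ± 0.7 FPKM, the reverse of their order in DMSO. GENCODE release 29 annotates 25 pseudogenes of FTH1, 16 of FTL and 3 of NCOA4, and the count table has no row for any of them, so how reads shared with these copies were assigned is uncertain for these 3 genes.

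FTH1, the ferritin heavy chain that oxidizes iron for storage, had the largest rise of the 9 genes. Its level was 2587, 2477 and 2310.3 CPM in DMSO, 4255, 3934 and 4061 CPM in EVER, 4592, 4504 and 5439 CPM in SGI, and 5705, 5851 and 5582 CPM in COMB. The 4 groups did not overlap and stood in the order DMSO, EVER, SGI, COMB, with SGI 3 well above the other SGI libraries. As a share of all counts, FTH1 transcripts went from a mean of 0.245% in DMSO to 0.577% in COMB. The log2 fold change against DMSO was 0.73 (SE 0.06, adjusted p = 6.80e-09) in EVER, 0.98 (SE 0.06, adjusted p = 8.79e-11) in SGI and 1.22 (SE 0.06, adjusted p = 2.94e-12) in COMB, where the fold was 2.32. Neighbours in this order also differed, SGI from EVER by 0.25 (adjusted p = 0.00432) and COMB from SGI by 0.24 (adjusted p = 0.00607). Without SGI 3, these differences were 0.16 (adjusted p = 0.00841) and 0.33 (adjusted p = 2.31e-06), and the rise in SGI was 0.89. Without DMSO 1, the rise in SGI was 1.02.

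FTL, the light chain that aids the mineral core, rose in the same 3 groups by less. It stood at 1586, 1486 and 1404 CPM in DMSO, 1980.3, 1953 and 1914 CPM in EVER, 2265, 2240.5 and 2635 CPM in SGI, and 2538, 2576 and 2687 CPM in COMB. All treated libraries lay above all DMSO libraries, EVER lay below SGI and COMB, and SGI 3 lay within the range of COMB. On the log2 scale the change was 0.39 (adjusted p = 7.29e-06) in EVER, 0.67 (adjusted p = 4.91e-09) in SGI and 0.80 (adjusted p = 3.25e-10) in COMB. COMB was not called different from SGI, with a difference of 0.13 on the log2 scale (95% interval 0.02 to 0.24, adjusted p = 0.105). This depended on 1 library, since without SGI 3 the difference was 0.21 (adjusted p = 6.28e-04), and the rise in SGI was then 0.59.

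The heavy and light chains did not rise in step. The ratio of FTH1 to FTL, taken from their FPKM values within a library, was 1.19 ± 0.01 (SD, n = 3) in DMSO, 1.52 ± 0.05 in EVER, 1.47 ± 0.02 in SGI and 1.59 ± 0.08 in COMB. Every treated library had a ratio above every DMSO library (the lowest treated value was 1.46 and the highest DMSO value 1.21), and in SGI 3, the library highest in both chains, the ratio was 1.49. The exact permutation test (two-sided) gave p = 0.1 for each treated group against DMSO, the smallest p that 3 against 3 libraries allow, so this design cannot reach 0.05. Among the treated groups, COMB lay above SGI (exact permutation p = 0.1), while COMB and EVER overlapped (exact permutation p = 0.3), as did SGI and EVER (exact permutation p = 0.3).

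**Figure D2:**
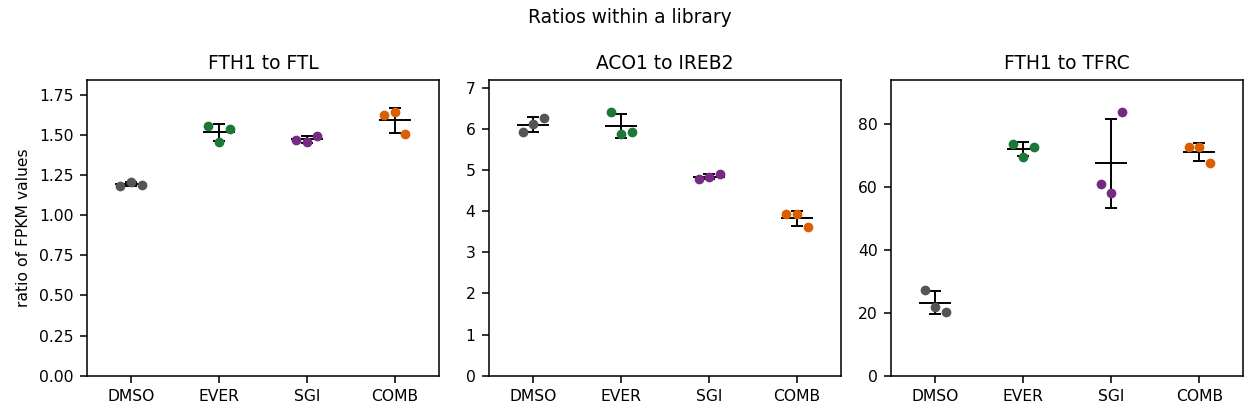
Ratios of FPKM values within each library (linear axes from 0), with 1 point per library, a dash at the mean and bars of 1 SD (n = 3 per group). The ratio of FTH1 to FTL rose from 1.19 in DMSO to between 1.47 and 1.59 in the treated groups, that of ACO1 to IREB2 fell from 6.12 to 3.83 in COMB, and that of FTH1 to TFRC rose from 23.2 to between 67.6 and 72.1.

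TFRC, the receptor for transferrin-bound iron and the member with 4 of the printed matches in its 3′ UTR, fell in every treated group. Its level was 579, 695 and 696 CPM in DMSO, 353, 346 and 342 CPM in EVER, 461, 475 and 397 CPM in SGI, and 479.6, 492 and 504 CPM in COMB. All treated libraries lay below all DMSO libraries, although DMSO 1 was well below the other DMSO libraries, and EVER was lowest throughout. The log2 fold change was -0.92 (SE 0.06, adjusted p = 1.87e-09) in EVER, -0.56 (adjusted p = 6.30e-07) in SGI and -0.42 (adjusted p = 1.82e-05) in COMB, so the gene was 0.528 of its DMSO level in EVER. SGI exceeded EVER by 0.36 (adjusted p = 5.88e-04) and COMB exceeded EVER by 0.50 (adjusted p = 5.98e-06). COMB and SGI did not overlap but were not called different (0.15, 95% interval 0.01 to 0.28, adjusted p = 0.128). That comparison was called without DMSO 1 (0.15, adjusted p = 0.0340), and the difference was 0.07 (adjusted p = 0.413) without SGI 3. Without SGI 3 the log2 change in SGI was -0.49. Without DMSO 1 the log2 changes were -1.01 in EVER, -0.65 in SGI and -0.50 in COMB.

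The ratio of FTH1 to TFRC, storage over uptake, was 27.4, 21.8 and 20.3 in the DMSO libraries. It was 73.9, 69.6 and 72.7 in EVER, 60.9, 58.0 and 83.9 in SGI, and 72.8, 72.7 and 67.8 in COMB. Each treated group lay wholly above DMSO (exact permutation p = 0.1, the smallest possible), and the treated groups overlapped each other, with exact permutation p-values of 0.6, 0.7 and 0.8. The overlap of SGI with EVER and COMB rested on SGI 3, since SGI 1 and SGI 2 lay below every library of both groups. The means of EVER and COMB were made up differently, of a large fall of TFRC with a smaller rise of FTH1 in EVER, and a smaller fall with a larger rise in COMB.

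STEAP3, the endosomal ferrireductase, rose in SGI and in COMB and was not called in EVER. It stood at 153, 157 and 154 CPM in DMSO, 147, 151 and 158 CPM in EVER, 183, 184 and 177 CPM in SGI, and 221, 216 and 223 CPM in COMB. EVER and DMSO overlapped, SGI lay above both, and COMB lay above SGI. Against DMSO the log2 change was -0.03 (95% interval -0.11 to 0.05, adjusted p = 0.558) in EVER, 0.23 (adjusted p = 3.06e-05) in SGI and 0.51 (adjusted p = 1.08e-09) in COMB. SGI exceeded EVER by 0.26 (adjusted p = 5.40e-05), and COMB exceeded SGI by 0.28 (adjusted p = 2.55e-05).

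SLC11A2, the divalent metal transporter, moved least among the genes that rose. Its levels ran from 40.9 to 44.2 CPM in DMSO, 45.7 to 47.8 in EVER, 46.9 to 48.5 in SGI and 48.2 to 50.7 in COMB. The treated libraries all lay above DMSO, EVER and SGI overlapped, and SGI overlapped COMB. These rises were 0.14 on the log2 scale (adjusted p = 0.0146) in EVER, 0.16 (adjusted p = 0.00674) in SGI and 0.22 (adjusted p = 4.35e-04) in COMB. Between treated groups the difference was widest for COMB against EVER, at 0.08 (95% interval -0.02 to 0.18, adjusted p = 0.203), and it did not pass. The call in EVER was lost without DMSO 1 (0.11, adjusted p = 0.0647) and without EVER 3 (0.13, adjusted p = 0.0530).

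SLC40A1, the iron exporter, was at or under the counting floor in all 12 libraries. The library SGI 1 held 2 counts and the other 11 held 0. A count of 0 allows up to 3 counts, which stood for 0.0723 to 0.0810 CPM depending on the depth of the library, a limit that covers counting error only. A change of SLC40A1 was therefore not detectable at this depth, and no fold is given.

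NCOA4, the receptor that hands ferritin to the lysosome, rose most with everolimus alone. It stood at 177, 184 and 191 CPM in DMSO, 254, 256 and 246 CPM in EVER, 221, 229 and 211 CPM in SGI, and 226, 225 and 222 CPM in COMB. All treated libraries lay above DMSO, EVER lay above both other treated groups, and COMB lay within the range of SGI. Against DMSO it rose by 0.46 on the log2 scale (adjusted p = 2.92e-08) in EVER, 0.26 (adjusted p = 1.67e-05) in SGI and 0.29 (adjusted p = 5.22e-06) in COMB. SGI was below EVER (-0.19 on the log2 scale, adjusted p = 0.00187) and so was COMB (-0.17, adjusted p = 0.00245). The difference of COMB from SGI was 0.02 (95% interval -0.06 to 0.11, adjusted p = 0.751).

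ACO1, the dual aconitase and iron regulatory protein, fell in SGI and fell furthest in COMB. Its level was 181, 203 and 212 CPM in DMSO, 194, 189 and 186 CPM in EVER, 150.2, 156 and 141 CPM in SGI, and 114, 112 and 109 CPM in COMB. DMSO and EVER overlapped, SGI lay below both, and COMB lay below SGI. It changed by -0.07 on the log2 scale (95% interval -0.18 to 0.04, adjusted p = 0.271) in EVER, -0.42 (adjusted p = 1.48e-06) in SGI and -0.83 (adjusted p = 1.34e-10) in COMB. The difference was -0.35 for SGI against EVER (adjusted p = 7.34e-05), -0.41 for COMB against SGI (adjusted p = 1.43e-05) and -0.76 for COMB against EVER (adjusted p = 1.49e-09). DMSO 1 was the lowest DMSO library, and without it the change in EVER was -0.13 and called (adjusted p = 0.0182). The change in SGI was -0.38 without SGI 3 and -0.48 without DMSO 1, and the change in COMB was -0.89 without DMSO 1.

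IREB2, the other iron regulatory protein, had nearly level transcripts. Its levels ran from 59.3 to 65.5 CPM in DMSO, 58.7 to 62.4 in EVER, 55.8 to 62.7 in SGI and 55.4 to 58.8 in COMB. COMB lay below DMSO by a narrow gap, and all other neighbouring groups overlapped. Against DMSO it changed by -0.06 on the log2 scale (95% interval -0.17 to 0.06, adjusted p = 0.389) in EVER, -0.08 (adjusted p = 0.222) in SGI and -0.15 (adjusted p = 0.0194) in COMB. The call in COMB was lost under upper-quartile scaling (-0.09, adjusted p = 0.136), on the FPKM values with limma-trend, and without any of DMSO 2, DMSO 3, COMB 1 or COMB 2 (adjusted p between 0.0624 and 0.0999).

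The transcripts of the regulatory proteins therefore shifted against each other. The ratio of ACO1 to IREB2 (FPKM) was 6.12 ± 0.17 (SD, n = 3) in DMSO, 6.08 ± 0.30 in EVER, 4.84 ± 0.06 in SGI and 3.83 ± 0.18 in COMB. SGI lay wholly below DMSO and COMB wholly below SGI (exact permutation p = 0.1 for each, the smallest possible), while EVER and DMSO overlapped (exact permutation p = 0.8).

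Against everolimus alone, the combination had 4 of the 8 tested genes higher (FTH1, FTL, TFRC and STEAP3), where 20.1% of all tested genes were higher, and 2 lower (NCOA4 and ACO1), where 19.2% were lower. Against SGI-1027 alone, it had 2 higher (FTH1 and STEAP3) and 1 lower (ACO1), where 9.4% and 10.2% of all tested genes were. Between the single drugs, SGI had 4 genes higher than EVER (FTH1, FTL, TFRC and STEAP3) and 2 lower (NCOA4 and ACO1), where 13% and 9.51% of all tested genes were. No iron gene passed the study's cut-off in these comparisons, which 3.9%, 1.64% and 1.79% of all tested genes passed. The median log2 difference of the 8 genes was 0.25 for COMB against EVER, 0.09 for COMB against SGI and 0.13 for SGI against EVER.

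The interaction compares the log2 change in COMB with the sum of the changes under each drug alone, and takes the everolimus dose as equal in both groups. It was called for 6 of the 8 tested genes, 2 positive and 4 negative, where 23.6% and 22.1% of all tested genes were. TFRC had the largest, at 1.07 (SE 0.09, adjusted p = 5.59e-08), so that its fall with both drugs was smaller than the sum of the single-drug falls, and it was the only iron gene past the study's cut-off, which 5.76% of all tested genes passed. The ferritin genes were negative, FTH1 at -0.49 (SE 0.08, adjusted p = 7.65e-05) and FTL at -0.26 (adjusted p = 0.00934), which means that their rise in COMB was smaller than the sum of the single-drug rises. NCOA4 was also negative at -0.43 (adjusted p = 7.33e-06). STEAP3 at 0.30 (adjusted p = 1.26e-04) and ACO1 at -0.34 (adjusted p = 8.54e-04) moved further in COMB than the sum. For SLC11A2 the interaction was -0.08 (adjusted p = 0.334) and for IREB2 it was -0.02 (adjusted p = 0.870). Without SGI 3 it was -0.40 for FTH1, -0.18 for FTL and 0.99 for TFRC, and TFRC then no longer passed the study's cut-off, as under upper-quartile scaling (0.99). Without DMSO 1 the interaction was 1.16 for TFRC and -0.28 for ACO1, and both were still called.

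**Figure D3:**
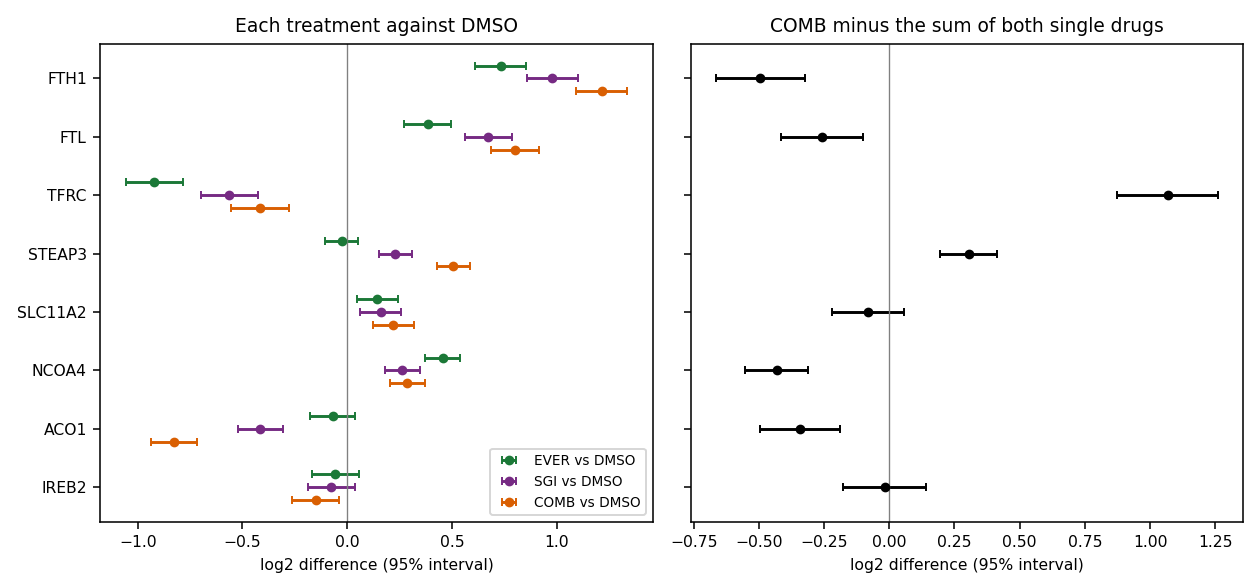
Left, log2 fold change of each tested iron gene against DMSO in EVER, SGI and COMB; right, the interaction, which is the COMB change minus the sum of both single-drug changes (points, edgeR estimates; bars, 95% intervals). On the left FTH1 reached 1.22 in COMB and TFRC -0.92 in EVER, and on the right TFRC stood alone at 1.07 while FTH1 and NCOA4 were at -0.49 and -0.43.

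The genes whose pattern over the 12 libraries was most like that of FTH1 and TFRC, the members with the widest range of group means (1.22 and 0.91 on the log2 scale), were sought among 11464 genes. Likeness was the root mean square difference of log2 CPM after centring each gene. For FTH1 the closest were CLIP2 (0.0558), LOXL2 (0.0730) and P2RX4 (0.0763), and for TFRC they were CDC6 (0.0704), URB2 (0.0729) and GTPBP4 (0.0837). FTL was not among the closest 3 to FTH1.

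A wider list of 64 other genes of iron and heme handling had 61 in the table and 54 tested. In EVER 8 of the 54 rose and 24 fell, in SGI 11 rose and 26 fell, and in COMB 12 rose and 27 fell. The median log2 fold change of the list was -0.12, -0.17 and -0.16, against 0.00, 0.02 and 0.01 over all tested genes. Of all tested genes, 27.2% rose and 29.2% fell in EVER, 32% and 30.6% in SGI, and 32.8% and 33.4% in COMB, the shares against which these counts and those of the groups of genes below are read. Among the 20 genes of mitochondrial iron and iron-sulfur cluster assembly, 11 fell in EVER, 2 rose and 13 fell in SGI, and 2 rose and 11 fell in COMB. Their interaction was called for 10 of the 20, each time positive, where 23.6% of all tested genes were positive and 22.1% negative. Under upper-quartile scaling 6 of the 20 were positive and 1 was negative. Among the 16 heme genes, 4 rose and 8 fell in COMB.

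HMOX1, the heme oxygenase that releases iron from heme, stood at 31.3 to 33.2 CPM in DMSO, 47.5 to 49.8 in EVER, 46.7 to 54.3 in SGI and 79.4 to 85.6 in COMB. EVER and SGI overlapped, and COMB lay far above both. The log2 fold change of HMOX1 was 0.60 (adjusted p = 7.32e-08), 0.65 (adjusted p = 1.65e-08) and 1.36 (adjusted p = 3.88e-13), and its interaction was 0.11 (adjusted p = 0.249). LCN2, a secreted protein that binds iron-carrying siderophores, was the storage gene of the wider list with the largest change. LCN2 stood at 22.6 to 25.7 CPM in DMSO, 25.9 to 30.4 in EVER, 61.3 to 77.8 in SGI and 76.5 to 80.7 in COMB, with log2 fold changes of 0.22 (adjusted p = 0.0315), 1.51 (adjusted p = 2.09e-11) and 1.72 (adjusted p = 1.94e-12).

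Among uptake genes, the zinc and iron importer SLC39A8 ranged from 56.5 to 61.4 CPM in DMSO and from 26.1 to 31.7 in COMB, with log2 fold changes of -0.73 in EVER, -0.88 in SGI and -1.02 in COMB (adjusted p = 3.10e-10 in COMB). CYBRD1, the ferrireductase of the cell surface, rose by 1.38, 0.95 and 1.07 (adjusted p = 0.00668 in COMB), but on only 13 to 48 counts per library. MCOLN1, the lysosomal channel that can pass iron to the cytosol, had log2 changes of -0.22 in EVER (adjusted p = 0.0649), -0.01 in SGI and 0.38 in COMB (adjusted p = 0.00170). Its levels were 9.53 to 11.9 CPM in EVER and 14.7 to 17.3 in COMB, which did not overlap. CP, the ferroxidase ceruloplasmin, had log2 fold changes of -0.04 (adjusted p = 0.679), -0.35 (adjusted p = 3.27e-04) and -0.84 (adjusted p = 1.10e-08), the same order of groups as ACO1.

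FBXL5, the iron-sensing ligase subunit that marks IREB2 for breakdown, had 0.00 in EVER, -0.10 in SGI and -0.15 in COMB (adjusted p = 0.0381). NEO1, a receptor of the hepcidin pathway, rose by 0.31, 0.29 and 0.25 (adjusted p = 0.00248 in COMB). SLC25A37, the mitochondrial iron importer mitoferrin, had 0.21 in EVER (adjusted p = 0.0664), 0.41 in SGI and 0.62 in COMB (adjusted p = 1.26e-05). BOLA3, which acts in delivery of iron-sulfur clusters, fell by 0.72, 0.92 and 1.02 on the log2 scale (adjusted p = 3.22e-07 in COMB). ABCG2, which exports heme and porphyrins, had -0.75, -1.01 and -0.62 on 28 to 68 counts per library, and its interaction was 1.14 (adjusted p = 0.00810).

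**Figure D4:**
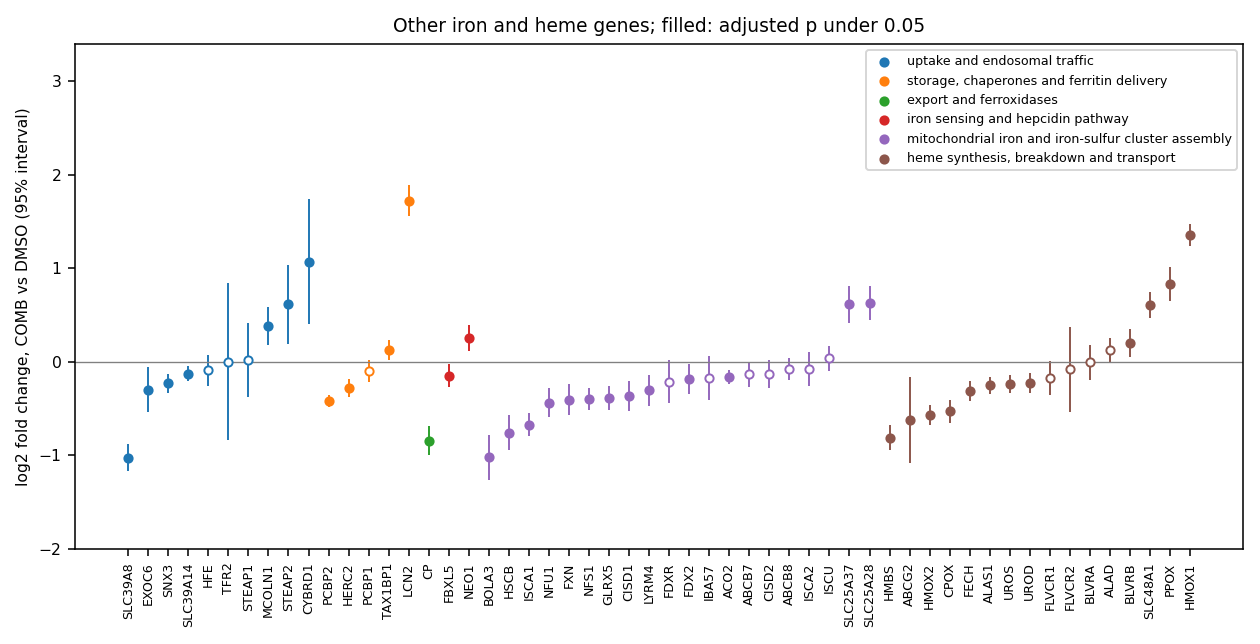
Log2 fold change in COMB against DMSO of the 54 tested genes of the wider iron and heme list, ordered by role and then by value (points, edgeR estimates; bars, 95% intervals; filled points, adjusted p under 0.05). LCN2 at 1.72 and HMOX1 at 1.36 lay highest, SLC39A8 and BOLA3 at -1.02 lay lowest, and 27 of the 54 fell.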

How the data were processed

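RNA from 786-O cells was sequenced in 12 libraries, 3 for each of 4 groups. The authors deposited whole-number read counts per gene symbol, without normalization, and FPKM values of the same genes, which were counts divided by a fixed length per gene and by the library total (the implied length was constant within 0.1% for 13015 of 13015 genes checked). The aligner, counting program and strand setting are not given in the sources used here. The submitters' processing notes name the mouse builds GRCm38 and mm10, although the symbols are human. The notes and the paper name different RNA and library kits.

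Counts were fitted in R 4.3.3 with edgeR 4.0.16 (filterByExpr, TMM factors, 1 quasi-likelihood fit of all 12 libraries, prior count 0.125), after a test on simulated data. Of 17085 genes, 12841 were tested and 4244 were not. Contrasts were the 6 pairs of groups and the interaction. Ratios were tested by exact permutation. Alternatives were DESeq2 1.42.0, upper-quartile scaling, other filters, a replicate block, only the 2 groups compared, limma 3.58.1 on log2(FPKM + 1) and log2(FPKM + 0.1), and leaving out each library. Each gene had an estimate of spread shared by all groups, with 3 libraries in each. Leaving out a library could thus also move the SE and p-values of contrasts between other groups. The genes and lists were chosen with earlier results of these data known. Of the wider list, HMOX1, FBXL5, MCOLN1, SLC25A37, all genes past the study's cut-off against DMSO in any group, and for each role the called gene with the largest change in COMB were named.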

Additional observations from a re-analysis of the deposited data

Results flagged for a closer look

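The interaction, the log2 change with both drugs minus the sum of the changes with each alone, was called for 6 of the 8 tested iron genes by edgeR's quasi-likelihood test, 2 positive and 4 negative, where 23.6% and 22.1% of all tested genes were. It was 1.07 for TFRC and 0.30 for STEAP3. It was -0.49 for FTH1, -0.26 for FTL, -0.43 for NCOA4 and -0.34 for ACO1. If the everolimus dose was equal in EVER and COMB, the effect of adding SGI-1027 differed with and without everolimus for each of the 6 genes. This rests on the test of that difference itself, from which a difference in everolimus dose cannot be told apart. TFRC passed the study's cut-off, as did 5.76% of all tested genes, but not without SGI 3 or under upper-quartile scaling (0.99 in each).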

How the results depend on the processing

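No direction of a called iron gene reversed under any alternative. Of the values of single members under alternatives, 1098 kept their side of the threshold, 10 lost and 4 gained a call. Under the study's cut-off the iron genes called numbered 0 in EVER, 0 in SGI and 1 in COMB against DMSO, 0 for COMB against EVER, 0 for COMB against SGI, 0 for SGI against EVER and 1 for the interaction. The wider list had 1, 2, 5, 1, 0, 1 and 3 in this order, and all tested genes had 615, 941, 1279, 501, 211, 230 and 740. For these the fold limit of the cut-off removed the calls. With only the 2 groups compared, 6 genes of the wider list were called for COMB against SGI, where all 12 libraries gave 10.

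Leaving out 1 library at a time gave 4 to 5 iron genes called in EVER, 7 to 7 in SGI and 7 to 8 in COMB against DMSO, 6 to 6 for COMB against EVER, 3 to 4 for COMB against SGI, 6 to 6 for SGI against EVER and 6 to 6 for the interaction. The wider list gave 28 to 35, 32 to 38, 33 to 39, 16 to 24, 5 to 11, 6 to 13 and 22 to 29, and all tested genes gave 6534 to 7643, 7383 to 7999, 7888 to 8785, 4175 to 5563, 1813 to 2853, 2002 to 3231 and 5308 to 6015. For COMB against SGI, the wider list fell to 5 without COMB 2 and to 6 without COMB 3, SGI 1 or SGI 2. For SGI against EVER it fell from 10 to 6 without SGI 3. The cause was not tested.

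Upper-quartile scaling moved the share of higher genes among all called from 48.2% to 60.7% in EVER against DMSO and from 51.7% to 39.5% for the interaction, and limma-trend on log2(FPKM + 1) moved it from 47.9% to 58.4% for COMB against SGI. The FTL difference between COMB and SGI was called with no filter on low counts (0.13, adjusted p = 0.0435), and its interaction was not with limma-trend on log2(FPKM + 1) (-0.24, adjusted p = 0.0506).

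The replicate numbers did not pair the libraries: same-numbered libraries of different groups had deviations correlated at -0.295 to 0.068, and 2 of 12 libraries were closest to their own number. Libraries with different numbers had -0.240 to 0.366, with the highest for DMSO 1 and SGI 3. A replicate block called 5, 7 and 8 iron genes in EVER, SGI and COMB against DMSO. It called 6, 3, 6 and 6 for COMB against EVER, COMB against SGI, SGI against EVER and the interaction. These iron gene counts were the same as without the block, but the counts over all tested genes were lower in every contrast. In the same order the block called 7084, 7879, 8369, 4804, 2251, 2591 and 5631 of all tested genes. Without it the counts were 7237, 8040, 8496, 5043, 2518, 2884 and 5861. Depth limited only SLC40A1, with 7 genes of the wider list also untested.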
